A study of Homo sapiens with 8 samples.

Results

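The 88 genes described here encode translation initiation factors, kinases, inhibitors and relatives of these that share their EIF symbols, and aminoacyl-tRNA synthetases. They are all autosomal protein-coding genes of the GENCODE annotation on hg19 whose symbols run from EIF1 to EIF6, together with those made of 1 letter and ARS1 or ARS2, and EPRS1, out of 19229 autosomal protein-coding genes in all. Of the 88 genes, 53 carry EIF symbols, 18 encode cytosolic synthetases and 17 encode mitochondrial synthetases. The choice used names only and no measured value, and the X-linked genes of the same families are not in it.

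G-quadruplexes (G4s), 4-stranded folds of guanine-rich DNA, were mapped in a pair of cell lines, the leukemia line K562 and the liver cancer line HepG2, by chromatin immunoprecipitation and sequencing with the G4-binding antibody BG4. The chromatin of both lines was cross-linked with formaldehyde and treated with RNase A, and the labels give neither a drug nor a genetic change for any sample, only 3 G4 libraries and 1 input library for each line. Each line is an established culture of one origin, so the maps describe these lines and not blood or liver. The authors merged the peaks of 8 replicates in K562 and 9 in HepG2 into 2 lists for each line: a high-confidence list of stretches found in at least 5 of 8 or 6 of 9 replicates, and a lower-confidence list of stretches found in at least 2. These replicates are 2 to 3 technical repeats each of 3 independent experiments, so that repeats of 1 experiment count more than once towards the thresholds. An interval of these lists carries a position and no height, count or replicate value, so the depth behind an interval is unknown, no spread between replicates can be given and no test between the lines was possible. The different numbers of replicates and the different thresholds cannot be told apart from a difference between the cells.

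Initiation factors bring the initiator tRNA and the small ribosomal subunit to an mRNA, find its start codon and let the large subunit join, and aminoacyl-tRNA synthetases load each tRNA with its amino acid. One set of synthetases works in the cytosol and a largely separate set, also encoded in the nucleus, works in mitochondria. The phosphorylation of eIF2 by a small family of kinases and the binding of eIF4E by its inhibitors are the best known switches by which cells slow translation.

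Each gene was scored by the intervals that share at least 1 bp with the 1 kb either side of any of its annotated transcription start sites (TSSs). A gene was called high-confidence where a peak of the high-confidence list did so, lower-confidence only where nothing but an interval of the larger list did, and empty otherwise. In K562, 55 of the 88 genes (62.5%, 95% Wilson interval 52.1 to 71.9, which covers the counting of genes only) had a high-confidence peak, beside 36.7% of all autosomal protein-coding genes. In HepG2, 57 genes (64.8%, 54.4 to 73.9) had one, beside 32.0%. Both lines had a high-confidence peak at 46 genes (52.3%, background 25.3%), and at least 1 line had one at 66 genes (75%, background 43.4%). With any interval counted, 78 genes were reached in K562 (background 51.3%) and 78 in HepG2 (background 52.9%).

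A gene with a high-confidence peak in one line was never empty in the other. No gene had a high-confidence peak in K562 and an empty neighbourhood in HepG2 (background 3.15%), and none had the opposite pattern (background 2.54%). As shares of all genes, both background values lie within the counting error, because 0 of 88 allows up to 4.18% by the Wilson interval. Among genes with a high-confidence peak, the other line was empty at 0 of 55 for K562 and 0 of 57 for HepG2. The background counts were 606 of 7052 for K562 and 488 of 6161 for HepG2. Instead, 9 genes were high-confidence in K562 and lower-confidence in HepG2 (10.2%, background 8.24%), and 11 were high-confidence in HepG2 and lower-confidence in K562 (12.5%, background 4.22%). A further 8 genes were lower-confidence in both lines (9.09%, background 6.05%), 8 were lower-confidence in 1 line and empty in the other (9.09%, background 10.9%), and 6 were empty in all 4 lists (6.82%, background 39.6%).

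**Figure D1:**
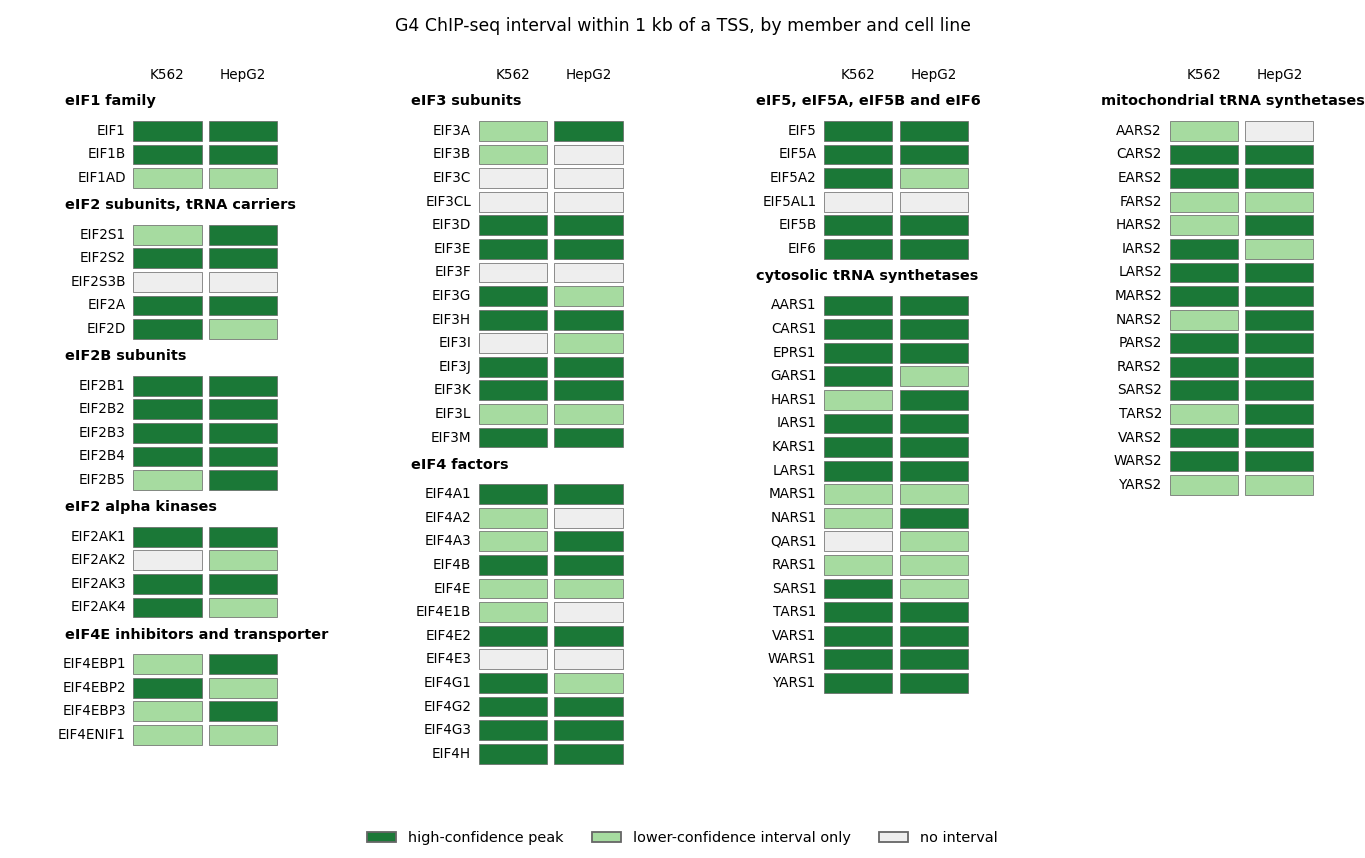
Each row is one of 86 of the genes, grouped by role, and each pair of tiles gives its class in K562 (left) and HepG2 (right): dark green for a high-confidence peak within 1 kb of a TSS, light green for a lower-confidence interval only, grey for no interval. Dark tiles fill both columns at 45 of the genes drawn, no dark tile stands beside a grey one, and both tiles are grey at 6 genes.

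These genes have more annotated TSSs than most, a median of 11 beside 5 for all genes, and so a wider searched window, a median of 7858 bp beside 4688 bp. With the single Ensembl canonical TSS of each gene, 52 genes were high-confidence in K562 beside 33.7% of all genes, 55 in HepG2 beside 28.9%, and 43 in both beside 23.0%. Neighbouring genes also share peaks. Of the genes, 21 have a coding gene head to head, with a start on the other strand within 1 kb upstream of the canonical TSS, and of these 11 were high-confidence in K562 (52.4%, beside 61.3% of all genes with such a neighbour) and 14 in HepG2 (66.7%, beside 60.5%). Of the 67 without one, 44 were high-confidence in K562 (65.7%, beside 33.5% of all genes without such a neighbour) and 43 in HepG2 (64.2%, beside 28.3%). This split uses the canonical TSS only, and the calls any TSS. The 67 thus include genes, such as EIF3H and WARS1, with peaks nearer to another coding gene. When only peaks at least as near to the gene as to any other coding gene were kept, an alternative chosen after seeing the data, 45 genes remained in K562 (31.6% of all genes), 48 in HepG2 (27.0%) and 35 in both (20.3%).

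The 36 other translation genes listed for comparison, among them elongation and release factors, mitochondrial initiation factors and further synthetase components, had a high-confidence peak at 20 genes in K562 (55.6%, 39.6 to 70.5) and 22 in HepG2 (61.1%, 44.9 to 75.2). All genes gave 36.7% and 32.0%. Both lines had a high-confidence peak at 17 of the 36 (47.2%, beside 25.3% of all genes), and 1, EEFSEC, was empty in all lists (2.78%, beside 39.6%). The intervals of the shares in K562 and in HepG2 overlap those of the 88 genes. FARSB encodes the beta subunit of the cytosolic phenylalanine enzyme and is outside the name rule. It had 32 bp of high-confidence peak in HepG2 and no interval in K562. This pattern was found at 1 of the 36 genes (2.78%, beside 2.54% of all genes) and at none of the 88.

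**Figure D2:**
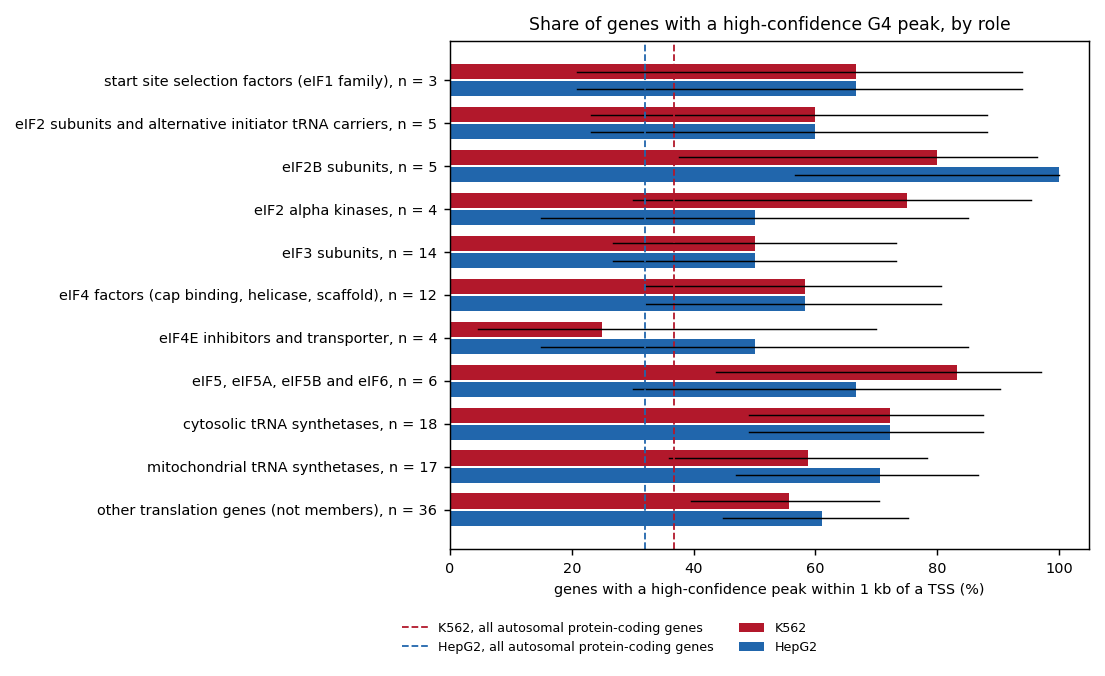
Bars give the percentage of genes in each role with a high-confidence peak in K562 (red) and HepG2 (blue), with 95% Wilson intervals as black lines and the shares over all autosomal protein-coding genes as dashed lines. The eIF2B subunits reached 80.0% and 100.0%, the eIF4E inhibitors and transporter 25.0% and 50%, and with 3 to 18 genes per role most intervals overlap each other.

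The high-confidence peaks lay just upstream of the TSSs. The 55 genes of K562 carried 62 peaks and the 57 genes of HepG2 also carried 62. Measured from the peak centre to the nearest TSS of the gene, the median position was -55.0 bp in K562, with 79.0% of peaks upstream and 95.2% within 250 bp. In HepG2 it was -52.5 bp, with 82.3% upstream and 88.7% within 250 bp. All high-confidence peaks near coding genes, measured to the nearest coding gene's TSS in place of the gene's own, gave medians of -52.0 bp and -61.0 bp. Taking the nearest of many TSSs draws positions towards 0, and from the canonical TSS the medians were -96.0 bp and -109.5 bp. The peaks had a median width of 213 bp in K562 and 210.5 bp in HepG2, beside 204 bp and 182 bp for all peaks near coding genes.

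**Figure D3:**
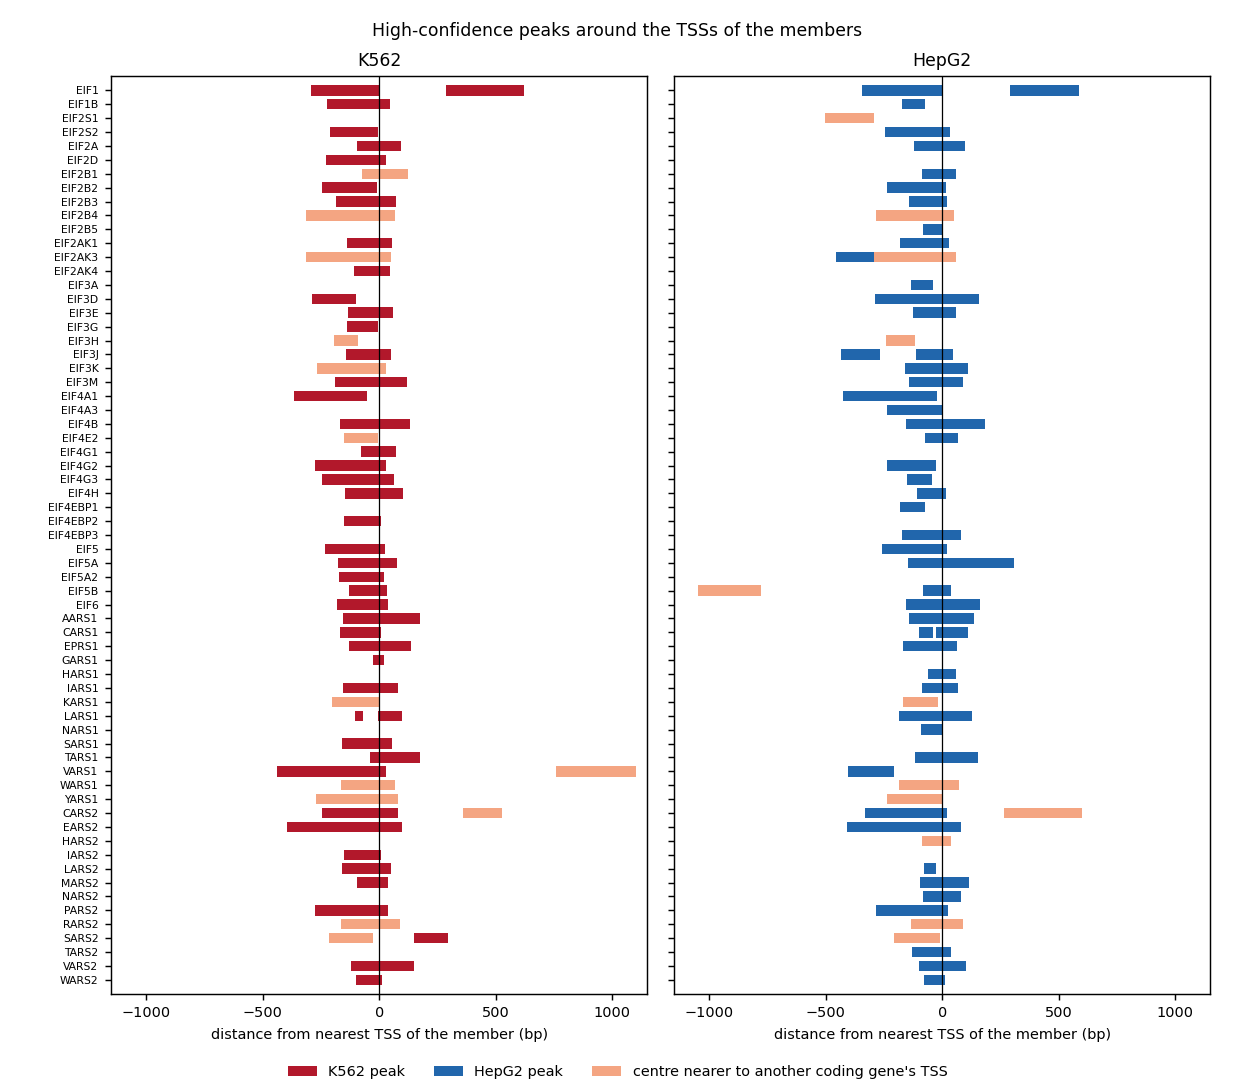
Each bar is a high-confidence peak, drawn to scale by its distance in bp from the nearest TSS of the gene named on the left (negative is upstream), for K562 on the left and HepG2 on the right, with peaks whose centre is nearer to another coding gene's TSS in orange. Most bars end at or straddle the TSS, 13 K562 and 12 HepG2 bars are orange (the peak shared by HARS1 and HARS2 is drawn at both genes), and the bars farthest out are those of VARS1 in K562 at 929 bp and EIF5B in HepG2 at -914 bp.

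Coverage around the canonical TSS showed the same shape. At -60 bp, 53.41% of the 88 genes lay under a high-confidence peak in K562, beside a maximum of 26.69% at -70 bp over the 18978 genes with a canonical transcript. In HepG2 the maximum was 54.55% at -90 bp, beside 21.55% at -90 bp over all genes. At 500 bp downstream of the TSS the share was 1.136% in both lines.

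**Figure D4:**
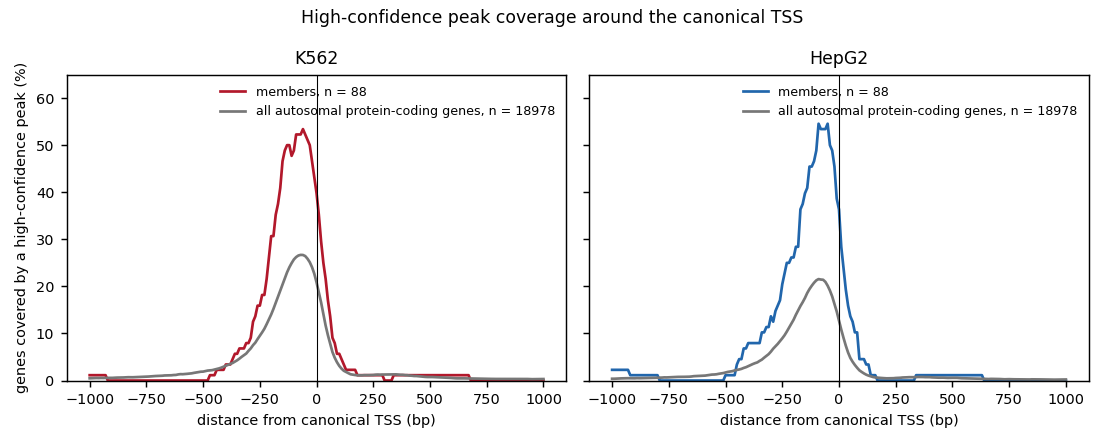
The lines give the percentage of genes covered by a high-confidence peak at each distance in bp from the canonical TSS, for the 88 genes (coloured) and for all 18978 genes with a canonical transcript (grey), in K562 on the left and HepG2 on the right. The coloured lines reach 53.41% and 54.55% just upstream of the TSS and the grey lines 26.69% and 21.55%, and all lie at or under 1.897% at 500 bp either side.

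A peak found here in one line was found in the other, at least in the larger list. Of the 62 K562 peaks, 50 shared bases with a HepG2 high-confidence peak, 12 with a lower-confidence interval only, and 0 with neither, whereas 17.0% of the 7242 K562 peaks near coding genes overlapped no HepG2 interval. Of the 62 HepG2 peaks, 48 shared bases with a K562 high-confidence peak, 14 with a lower-confidence interval only and 0 with neither, whereas 15.3% of the 6000 HepG2 peaks near coding genes overlapped no K562 interval. A count of 0 of 62 allows a share of up to 5.83% by the Wilson interval. At all 46 genes that were high-confidence in both lines the peaks overlapped, by a median of 188 bp. The same overlap was not computed for all genes high-confidence in both lines, so this count has no background. The same holds for the splits into high-confidence and lower-confidence overlap above.

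The sequence under the peaks was searched for a complete G4 motif, on either strand and wholly inside the peak. The motif was 4 runs of at least 3 G separated by loops of 1 to 7 bases, which could include G. In K562 12 of the 62 peaks held one (19.4%, 11.4 to 30.9), beside 35.0% of all K562 peaks near coding genes. In HepG2 6 of 62 did (9.68%, 4.51 to 19.5), beside 25.0% of all HepG2 peaks near coding genes. Both shares lay below those of all such peaks, with upper bounds of 30.9% and 19.5%. The GC content of these peaks was also lower, with medians of 67.83% in K562 and 66.01% in HepG2 beside 71.22% and 67.56%, and its part in the motif share was not tested. Relaxed to runs of at least 2 G, the motif was present in 57 of the K562 peaks (91.9%) and 56 of the HepG2 peaks (90.3%), beside 91.1% and 85.8% of all peaks near coding genes, so that this wider motif was common to nearly all such peaks.

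EIF5A, the hypusine-carrying factor that helps ribosomes through difficult peptide bonds, and CARS2, the mitochondrial cysteine enzyme, were the genes with a complete motif inside a high-confidence peak of both lines. Their motifs are printed to show what a peak with a full motif holds, 5′ to 3′ on the guanine-rich strand of hg19, with runs of at least 3 G in capitals. The EIF5A motif (chr17:7210807-7210825, plus strand) was centred 43 bp upstream of the nearest EIF5A TSS. Of the CARS2 motifs, A (chr13:111358519-111358536, minus strand) was centred 47 bp upstream of a CARS2 TSS, B (chr13:111358647-111358673, plus strand) 156 bp downstream of one, and C (chr13:111365403-111365421, minus strand) 457 bp downstream of another, in a peak nearer to ING1.
EIF5A: GGGtcggtGGGaGGGaGGG
CARS2 motif A: GGGcGGGGcGGGGcGGGG
CARS2 motif B: GGGGcGGGGaaggcccGGGGtggaGGG
CARS2 motif C: GGGGaGGGccGGGcacGGG

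The other complete motifs lay inside a high-confidence peak of 1 line, and those below were chosen for printing after their values were seen. The motifs of IARS2 (chr1:220267402-220267425) and LARS2 (chr3:45430009-45430029), mitochondrial enzymes for isoleucine and leucine, and of YARS1 (chr1:33283198-33283222), the cytosolic tyrosine enzyme, lay inside the K562 peak. The IARS2 peak held another complete motif (chr1:220267432-220267454), which is not printed. The motif of EIF6 (chr20:33872466-33872484), which keeps the large ribosomal subunit from joining early, lay inside the HepG2 peak. The YARS1 motif is on the plus strand and the others on the minus strand. All but that of EIF6 lay wholly within lower-confidence intervals of both lines. At LARS2 the motif ran past the end of a HepG2 peak of 50 bp that lay inside the K562 peak of 212 bp, so that the same motif was counted in K562 and not in HepG2.
IARS2: GGGtagtGGGGGcGGGGcggtGGG
LARS2: GGGGGcGGGaccGGGGaaGGG
YARS1: GGGGtaGGGGaggtcGGGGaGGGGG
EIF6: GGGtcGGGaGGGGtGGGGG

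Most peaks held no complete motif. For the 5 genes with the most base pairs of peak and no complete motif in either line, the stretch of at most 30 bases with the most guanines among motifs with runs of at least 2 G is printed, each inside peaks of both lines and with runs of at least 2 G in capitals. They lie at EIF1 (chr17:39844923-39844943), EIF2AK3 (chr2:88991168-88991185), EARS2 (chr16:23568738-23568761), EIF2B4 (chr2:27593324-27593348) and EIF4A1 (chr17:7476056-7476072). All were centred between 64 and 204 bp upstream of a TSS of the gene. Those of EIF2AK3 and EIF4A1 are on the plus strand and the others on the minus strand. Because a loop could include G, a long run of EIF2AK3 was counted as separate runs of at least 2 G.
EIF1: GGagagctGGGaGGGGGaGGG
EIF2AK3: GGGGGagccGGGGGcGGG
EARS2: GGGGcaaGGctgcgctGGctgtGG
EIF2B4: GGGGcGGGGcctcGGGGcccgtcGG
EIF4A1: GGcaGGcGGGGccGGGG

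The neighbourhoods of these genes held complete motifs about as often as those of other genes. Within 1 kb of the canonical TSS, 71.6% of the 88 genes held a complete motif, beside 68.7% of all genes with a canonical transcript. Among genes with a high-confidence peak in K562 the share was 67.3% for these genes and 81.4% for all, and in HepG2 it was 64.9% and 77.5%. The promoters, taken from 250 bp upstream to 50 bp downstream of the canonical TSS, had a median GC content of 63.83%, close to the 63.67% of all genes, but they spread less, with quartiles of 60.67% and 67.0% beside 55.0% and 71.33%. When all genes were split into 3 classes of promoter GC content of about equal size, with bounds at 58.67% and 68.67%, 59 of the 88 genes fell in the middle class, where 71.2% had a high-confidence peak in K562 and 71.2% in HepG2, beside 45.6% and 43.8% of all genes of that class. In the lowest class 31.2% and 50% of 16 genes had one, beside 12.1% and 14.6%. In the highest class the shares of 13 genes were 61.5% and 53.8%, beside 54.4% and 39.4%, so the distance to all genes was smallest there.

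The start site selection genes EIF1 and EIF1B, whose products keep the scanning ribosome from starting at the wrong codon, were high-confidence in both lines. EIF1 had 624 bp of peak in K562 and 642 bp in HepG2, in a pair of peaks on either side of the TSS: one centred 147 bp upstream in K562 and 170 bp upstream in HepG2, the other in the gene at 455 bp and 437 bp. The pairs shared 585 bp, and no other gene of the set had so much peak in common between the lines. EIF1B had 270 bp and 101 bp. EIF1AD, a protein with a domain like that of eIF1A, was lower-confidence in both lines, with 191 bp and 90 bp.

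Among the genes that carry the initiator tRNA, EIF2S2 (eIF2 beta) had the most peak, 208 bp in K562 and 283 bp in HepG2, the K562 peak lying wholly within the HepG2 one. EIF2A, an alternative carrier, had 188 bp and 219 bp. EIF2S1, which encodes the eIF2 alpha subunit that the kinases phosphorylate, was high-confidence only in HepG2, with 209 bp centred 399 bp upstream and nearer to the head-to-head gene ATP6V1D, and lower-confidence in K562 (230 bp). EIF2D, another carrier, showed the reverse, with 254 bp of high-confidence peak in K562 and a lower-confidence interval of 303 bp in HepG2. EIF2S3B, an autosomal relative of the X-linked gamma subunit gene, had no interval in any list, with a promoter GC content of 60% and 1 complete motif within 1 kb of its canonical TSS.

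The eIF2B complex reloads eIF2 with GTP. EIF2B1, EIF2B2, EIF2B3 and EIF2B4 were high-confidence in both lines, and EIF2B5, the catalytic subunit, in HepG2 (86 bp) with 235 bp at lower confidence in K562. EIF2B4 had 381 bp in K562 and 335 bp in HepG2, the HepG2 peak lying wholly within the K562 peak. This peak sits between EIF2B4 and the head-to-head gene SNX17 and its centre is nearer to SNX17. EIF2B2 had 234 bp and 255 bp, EIF2B3 259 bp and 163 bp, and EIF2B1 199 bp and 144 bp. The K562 peak of EIF2B1 was centred nearer to GTF2H3.

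Of the kinases that phosphorylate eIF2 alpha, EIF2AK1 (the haem-regulated HRI) was high-confidence in both lines with 193 bp and 208 bp. EIF2AK3 (PERK, the kinase of endoplasmic reticulum stress) had 364 bp in K562 and 762 bp in HepG2, the most of any gene in HepG2. One peak, at chr2:88990988-88991351 in K562, lay near the start of RPIA and 64187 bp upstream of the canonical EIF2AK3 TSS, where a longer EIF2AK3 transcript begins, and was found in both lines. The other, 408 bp centred 251 bp upstream of the canonical TSS (chr2:88927030-88927437), was high-confidence in HepG2 only, and 154 bp of it lay in the lower-confidence list of K562. At the gene's own canonical promoter EIF2AK3 was therefore high-confidence in HepG2 alone. EIF2AK4 (GCN2, which senses uncharged tRNA) had 156 bp in K562 and lower-confidence intervals of 363 bp in HepG2. EIF2AK2 (PKR, activated by double-stranded RNA) had no interval in K562 and 215 bp at lower confidence in HepG2.

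The eIF3 genes, whose products form the large scaffold on the small subunit, were high-confidence at 7 of 14 genes in each line (50%, 26.8 to 73.2, beside 36.7% and 32.0% of all genes). They were so at 6 in both (42.9%, beside 25.3%), and the 14 include the near-identical pair EIF3C and EIF3CL. The genes marked in both lines were EIF3D, EIF3E, EIF3H, EIF3J, EIF3K and EIF3M. EIF3D, a subunit that can itself bind the cap, had the most peak, with 190 bp in K562 and 445 bp in HepG2, the lowest ratio of K562 to HepG2 among the genes marked in both (0.427). The K562 peak was centred 195 bp upstream of the TSS and shared 188 bp with the HepG2 one, which extended over the TSS. EIF3M had 309 bp and 229 bp, EIF3K 293 bp and 273 bp, and EIF3J 191 bp and 325 bp. The K562 peak of EIF3K was centred nearer to MAP4K1. EIF3J had a second HepG2 peak of 170 bp centred 351 bp upstream, found at lower confidence in K562.

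The calls of EIF3E and EIF3H rested on distant alternative starts. The EIF3E peaks, 196 bp in K562 and 184 bp in HepG2, lay 194817 bp and 194813 bp upstream of its canonical TSS, beside the start of EMC2, and those of EIF3H, 100 bp and 125 bp, lay 10574 bp and 10611 bp upstream of its canonical TSS and nearer to UTP23. EIF3G was high-confidence in K562 (134 bp) and lower-confidence in HepG2 (130 bp). EIF3A, the largest subunit, was high-confidence in HepG2 (93 bp) and lower-confidence in K562 (203 bp). EIF3L was lower-confidence in both lines, EIF3B in K562 only (368 bp), and EIF3I in HepG2 only, where the whole interval was 5 bp wide and lay at a TSS.

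EIF3C, EIF3CL and EIF3F were empty in all lists. EIF3C and EIF3CL each had a promoter GC content of 59.67% and 1 complete motif within 1 kb of the canonical TSS. EIF3CL is a near-identical copy of EIF3C: 96.7% of the 50-base words in its 2001 bp window occur in the windows of EIF3C. Reads that lie wholly in the shared words cannot be assigned to one copy, how such reads were treated is not certain from the sources used here, and their part in the lack of an interval was not tested. EIF3F has a promoter GC content of 49.67% and 0 complete motifs within 1 kb of its canonical TSS.

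The products of the eIF4 genes bind the cap and unwind the leader. Of these genes, 6 of 12 were high-confidence in both lines (25.4 to 74.6%, beside 25.3% of all genes). They were EIF4A1, EIF4B, EIF4E2, EIF4G2, EIF4G3 and EIF4H. EIF4A1, the main RNA helicase of initiation, had 313 bp in K562 and 401 bp in HepG2, the first wholly within the second, centred 208 and 223 bp upstream of the TSS. EIF4B, a cofactor of that helicase, had 300 bp and 339 bp. EIF4G2 (DAP5, a scaffold without the eIF4E site) had 303 bp and 212 bp, EIF4G3 309 bp and 106 bp, and EIF4H 246 bp and 123 bp. EIF4E2, a cap-binding protein that represses translation, had peaks of like size, 148 bp and 142 bp, that shared 25 bp only. The centre of its K562 peak was nearer to TIGD1.

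The paralogs of the helicase differed. EIF4A2 had a lower-confidence interval of 53 bp in K562 and none in HepG2, and EIF4A3, the helicase of the exon junction complex, was high-confidence in HepG2 (239 bp) and lower-confidence in K562 (226 bp). EIF4G1, the main scaffold, was high-confidence in K562 (150 bp) and lower-confidence in HepG2 (224 bp), with 9 complete motifs within 1 kb of its canonical TSS. EIF4E, the cap-binding protein itself, was lower-confidence in both lines, with 90 bp in K562 and 292 bp in HepG2. EIF4E1B was lower-confidence in K562 only (129 bp). EIF4E3 was empty in all lists, with a promoter GC content of 83.0%, the highest of the 88 genes, and 4 complete motifs within 1 kb of its canonical TSS.

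None of the 4 genes that restrain or transport eIF4E was high-confidence in both lines (0.0 to 49.0%, beside 25.3% of all genes). EIF4EBP3 had 253 bp of HepG2 peak over its TSS, of which 188 bp was lower-confidence in K562. EIF4EBP1, the best studied inhibitor, had 107 bp in HepG2 and 302 bp at lower confidence in K562. EIF4EBP2 was high-confidence in K562 (159 bp) and lower-confidence in HepG2 (195 bp). EIF4ENIF1, which carries eIF4E into the nucleus, was lower-confidence in both lines with 334 bp and 382 bp.

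The late-acting factors EIF5 (which triggers GTP hydrolysis on eIF2), EIF5A, EIF5B (which joins the subunits) and EIF6 were high-confidence in both lines. EIF5A had 326 bp in K562, in 2 peaks, and 456 bp in HepG2, in 1 peak that covered the space between them (chr17:7210500-7210955). EIF5 had 259 bp and 279 bp, and EIF6 221 bp and 315 bp. EIF5B had 162 bp in K562 and 341 bp in HepG2, where a second peak centred 914 bp upstream was nearer to TXNDC9 and was lower-confidence in K562. EIF5A2 was high-confidence in K562 (191 bp) and lower-confidence in HepG2 (130 bp). EIF5AL1, a relative of EIF5A, was empty in all lists, with a promoter GC content of 47.67%, the lowest of the 88 genes, 1 complete motif within 1 kb of its canonical TSS, and 13.1% of the 50-base words of its window in the EIF5A gene.

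**Figure D5:**
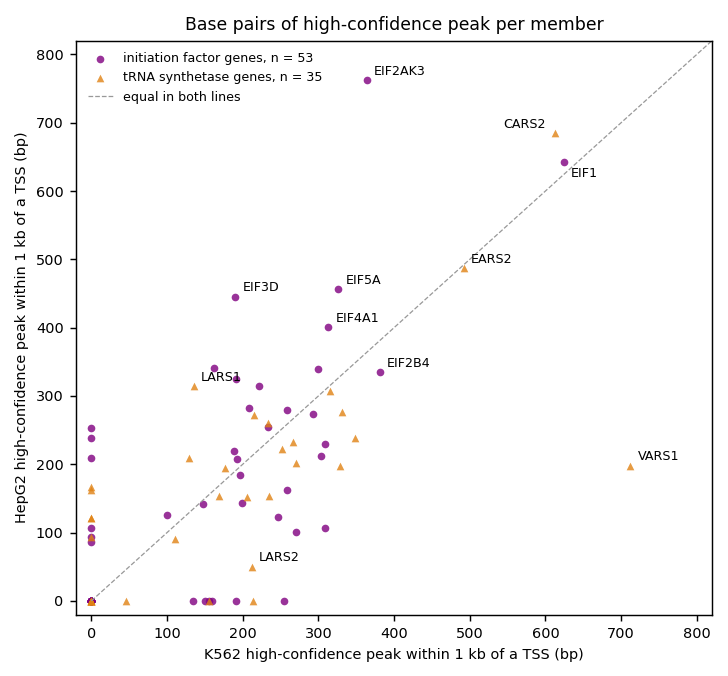
Each point is a gene, placed by its base pairs of high-confidence peak within 1 kb of its TSSs in K562 (horizontal) and HepG2 (vertical). Purple circles are all genes with EIF symbols, which the legend calls initiation factor genes. Orange triangles are synthetase genes and the dashed line marks equality. EIF1, EARS2 and CARS2 lie near the line at the upper end, EIF2AK3 (364 and 762 bp) far above it and VARS1 (712 and 198 bp) far below it.

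Of the 18 cytosolic synthetase genes, 13 were high-confidence in each line (72.2%, 49.1 to 87.5, beside 36.7% and 32.0% of all genes). In both lines 11 were high-confidence (61.1%, beside 25.3%), and none was empty in all lists (beside 39.6%). VARS1 (valine) had the most peak of any gene in K562, 712 bp, and 198 bp in HepG2. Of the K562 total, 468 bp came from a peak that ran from upstream across its TSS (chr6:31763502-31763969), held the whole HepG2 peak and had a GC content of 73.93%. The other 244 bp came from a second peak of 345 bp, partly outside the window and nearest to VWA7, centred 929 bp downstream of a VARS1 alternative start and 18499 bp from the canonical one. LARS1 (leucine) had 135 bp in K562, in peaks of 100 bp and 35 bp, and 314 bp in HepG2, in 1 peak that shared 88 bp with them.

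AARS1 (alanine) had 331 bp and 277 bp, EPRS1, the fused enzyme for glutamate and proline, 266 bp and 233 bp, and TARS1 (threonine) 215 bp and 272 bp. The peaks of YARS1 (349 bp and 238 bp), KARS1 (lysine, 205 bp and 152 bp) and WARS1 (tryptophan, 233 bp and 261 bp) were nearer to S100PBP, TERF2IP and WDR25. CARS1 (cysteine, 176 bp and 195 bp) and IARS1 (isoleucine, 235 bp and 154 bp) were also marked in both lines.

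GARS1 (glycine) and SARS1 (serine) were high-confidence in K562 and lower-confidence in HepG2. The GARS1 peak was 46 bp wide, and it is the gene lost when intervals under 50 bp are left out. HARS1 (histidine) and NARS1 (asparagine) were high-confidence in HepG2 and lower-confidence in K562. HARS1 and its mitochondrial counterpart HARS2 stand head to head, and one HepG2 peak of 122 bp (chr5:140070930-140071051) and one K562 lower-confidence interval gave both their calls. MARS1 (methionine) and RARS1 (arginine) were lower-confidence in both lines, and QARS1 (glutamine) was lower-confidence in HepG2 (189 bp) and empty in K562.

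Of the 17 mitochondrial synthetase genes, 10 were high-confidence in K562 (58.8%, 36.0 to 78.4, beside 36.7% of all genes). In HepG2 12 were (70.6%, 46.9 to 86.7, beside 32.0%), and in both lines 9 (52.9%, beside 25.3%). None was empty in all lists (beside 39.6%). CARS2 had 612 bp in K562, in 3 peaks, and 685 bp in HepG2, in 2, of which 433 bp were shared. The peak at its canonical start had a GC content of 74.61% in K562 and 73.79% in HepG2, while the peak at chr13:111365343-111365510 in K562, some 6963 bp upstream, is nearer to ING1. EARS2 (glutamate) had 492 bp and 487 bp in single peaks centred 149 and 164 bp upstream, which shared 475 bp and were the widest peaks of the set in either line.

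PARS2 (proline) had 315 bp and 307 bp with 300 bp shared, and VARS2 (valine) 270 bp and 202 bp. SARS2 (serine) had 329 bp in K562 and 198 bp in HepG2, the shared part lying towards MRPS12, a mitochondrial ribosomal protein gene. RARS2 (arginine) had 252 bp and 223 bp in peaks nearer to ORC3. MARS2 (methionine, 129 bp and 209 bp) and WARS2 (tryptophan, 111 bp and 90 bp) were also marked in both lines. LARS2 had 212 bp and 50 bp, the highest ratio of K562 to HepG2 (4.24).

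IARS2 was high-confidence in K562 (156 bp) and lower-confidence in HepG2 (215 bp). HARS2, NARS2 (asparagine, 162 bp) and TARS2 (threonine, 166 bp) were high-confidence in HepG2 and lower-confidence in K562. FARS2 (phenylalanine) and YARS2 (tyrosine) were lower-confidence in both lines, with 558 bp and 345 bp at FARS2. AARS2 (alanine) had a lower-confidence interval in K562 (80 bp) and none in HepG2. The cytosolic and mitochondrial enzymes for cysteine, leucine, tryptophan and valine were high-confidence in both lines, and those for asparagine and histidine in HepG2 only. For glutamate and proline, the fused cytosolic EPRS1 and the mitochondrial EARS2 and PARS2 were likewise high-confidence in both lines. The enzymes for alanine, arginine, isoleucine, methionine, serine, threonine and tyrosine fell in different classes in the cytosolic and mitochondrial gene.

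Over the 46 genes marked in both lines, 25 had more base pairs of peak in K562 and 21 in HepG2, and the median ratio of K562 to HepG2 was 1.03, with a range of 0.427 to 4.24. Genes with a peak carried a median of 233 bp in K562 (46 to 712) and 212 bp in HepG2 (50 to 762). The width of a merged peak depends on how many replicates had to overlap, which differed between the lines, and whether the ratios reflect that was not tested.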

How the data were processed

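G4s were mapped by ChIP-seq in K562 and HepG2 cells. Per their methods and notes, reads were trimmed (cutadapt 1.16), aligned to hg19 (BWA 0.7.15), stripped of duplicates (Picard 2.14.0, samtools 1.6), searched for peaks in each replicate (MACS2 2.1.1, q-value under 0.05) and merged (bedtools 2.26.0). The 4 lists the authors deposited hold interval positions in bp and no other value, so depth and replicate spread are unknown.

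Intervals were set against GRCh37 and GENCODE version 44 in its GRCh37 form, which is newer than the annotation of the study's methods. Overlap was at least 1 bp. Counts of genes were set beside the same counts over all autosomal protein-coding genes, and no test was run. Shares have 95% Wilson intervals that cover counting only. The genes described and the lists were chosen with earlier results of these data known.

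Each gene named is given by its class in both lines. Full values were given for genes empty in all lists, the 5 genes with most peak in each line and the gene with most peak per role. Motifs of at most 30 bases were printed for genes with one in a peak of both lines. Alternatives covered windows, TSS sets, overlap rules, widths, lists and motifs. Overlap and coverage functions were tested on simulated data, with 100.0% of 600 and 200 checks equal to a direct search. The motif function passed 100.0% of 2000 simulated checks without a direct search. These asked only whether the strand of a planted motif was called, and not its position or the number of motifs. In sequences without a planted motif no G was present, so a plus-strand call was impossible there. The work was done in Python 3.11.15 with pysam 0.24.0, numpy 2.4.6, matplotlib 3.10.9, scipy 1.17.1 and samtools 1.23.1. The counts include 2 genes whose own values are not reported here. Expression, chromatin accessibility and sequencing reads were not analysed here.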

Additional observations from a re-analysis of the deposited data

How the results depend on the processing

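The counts of genes with a high-confidence peak in K562, in HepG2 and in both lines stayed within 1.5 times the values above under windows of 500 bp and 2 kb, 1 kb upstream only, TSSs of coding transcripts or the canonical transcript only, stricter overlap rules and a minimum width of 50 bp. They ranged from 52 to 55 in K562, 55 to 57 in HepG2 and 43 to 46 in both. The counts of genes high-confidence in 1 line and empty in the other stayed at 0 under the same settings. With the lower-confidence list, 74 genes had an interval in both lines (43.8% of all genes). Keeping only peaks at least as near to the gene as to another coding gene, chosen after seeing the data, gave 45, 48 and 35.

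Motif shares and positions moved more. With loops of up to 12 bases the share of peaks with a motif was 38.7% in K562 and 29.0% in HepG2 (51.1% and 39.8% of all peaks near coding genes), with runs of at least 2 G it was 91.9% and 90.3% (91.1% and 85.8%), and in the lower-confidence intervals around the peaks, which are wider, it was 35.0% and 28.3% (49.2% and 41.5%). The shares thus lay below those of all peaks with both loop lengths and in the wider intervals, and not with runs of 2 G. From the canonical TSS the median positions were -96.0 bp and -109.5 bp. No paired analysis was possible because the lists are merged over replicates and no test was run. The lists carry no depth, so what a deeper map would add at the empty genes cannot be given.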
